A study of Mus musculus with 6 samples.

Results

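Type 2 genes were followed in border macrophages of young and old mouse brain: the ligands Ccl24 and Tslp, the receptor chains Il4ra, Il13ra1 and Crlf2, the nuclear receptor Pparg, and the alternative activation targets Arg1, Retnla, Chil3 and Mgl2. These 10 genes were taken by symbol from the 35598 identifiers of each library's table. They were chosen by biological role around Ccl24 and Tslp with their CPM values in this aged-against-young comparison known. The age differences of the 10 genes are therefore given as a description. Counts of test calls among them are given only beside the shares of all genes, and nothing is read from them. The cells were central nervous system-associated macrophages (CAMs), sorted from brains of male C57BL/6 mice as cells with CD11b, CD45 and CD206 and without CD3. The series held 3 young libraries from mice aged 2 months and 3 aged libraries from mice aged 18 months. All mice were of 1 strain and sex, and the labels name no treatment or transgene. Whether each library is a separate animal or a pool is not in the labels. Any p-value sets the age difference against the scatter of these 6 libraries within their groups, and that scatter may be technical.

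Type 2 immunity is the programme run by interleukin-4 and interleukin-13 and set off by alarmins such as TSLP. Interleukin-4 and interleukin-13 bind receptors built from the IL-4 receptor alpha chain with the common gamma chain or with IL-13 receptor alpha 1, and signal through JAK kinases and STAT6. TSLP binds a receptor made of the Crlf2 product and the IL-7 receptor alpha chain. In macrophages STAT6, together with PPAR gamma, turns on the alternative activation genes, among them arginase 1, the resistin-like protein Retnla, the chitinase-like protein Chil3 and the C-type lectin Mgl2. CCL24, also called eotaxin-2, draws eosinophils through the receptor CCR3.

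The libraries held 26605079 to 33306121 estimated counts. Levels are TMM CPM, counts scaled to a common library total with the trimmed mean of M-values, unless TPM is named, and differences are log2 fold changes, aged minus young, with the standard error (SE) of the edgeR fit. All 11 border macrophage markers were found in every library, the lowest being Lyve1 at 95.2 CPM in aged replicate 3, and the gate's own gene Mrc1 (encoding the sorted surface protein) lay between 1182 and 2940 CPM. The libraries also held transcripts of other cells. The 10 microglia markers summed to 4694 to 7327 CPM in the 2-month libraries and 9945 to 17490 CPM in the 18-month ones. Of the 10, 8 were higher in all 3 aged libraries than in the 3 young ones. Among genes averaging 50 CPM or more 11.2% were higher in this way. Neutrophil markers ranged from 6.57 CPM in aged replicate 3 to 37860 CPM in young replicate 1. The 9 choroid plexus epithelium markers summed to 11890 CPM in young replicate 3 and 8182 CPM for aged replicate 3, against at most 1381 CPM elsewhere. Ttr made up most of each sum.

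Both ligands were high in young and low in aged libraries. Ccl24 (ENSMUSG00000004814.10, mm10 chromosome 5, 135569937 to 135573049, minus strand) stood at 762, 1000.2 and 623 CPM in young replicates 1, 2 and 3 and at 137, 101 and 267 CPM in aged replicates 1, 2 and 3. The groups did not overlap, and aged replicate 3 was the nearest to the young libraries. The means were 795 ± 191 and 168 ± 87.5 CPM (SD, n = 3 each), 4.72 times as high in young, with a log2 fold change of -2.24 (SE 0.42). Tslp (ENSMUSG00000024379.4, chromosome 18, 32815383 to 32819797, plus strand) stood at 273, 345 and 350.2 CPM in the 2-month libraries and at 55.6, 66.6 and 145 CPM in the 18-month ones. Again no aged library reached a young one, and aged replicate 3 was again the highest of its group. The means were 323 ± 43.0 and 89.0 ± 48.7 CPM (SD, n = 3 each), 3.63 times as high in young, with a log2 fold change of -1.86 (SE 0.43). Without aged replicate 3 the fold changes were -2.74 for Ccl24 and -2.40 for Tslp.

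The ligands kept a narrow ratio to each other. Ccl24 ranged 9.94-fold and Tslp 6.30-fold over the 6 libraries, while the ratio of Ccl24 to Tslp ran from 1.51 in aged replicate 2 to 2.90 in young replicate 2. Per length, in TPM, Ccl24 was 2.69 to 5.30 times as abundant as Tslp. The likeness of profiles was measured as the mean absolute difference in log2 CPM over the 6 libraries after each gene was centred on its own mean. By this measure Tslp was the nearest to Ccl24 of 2188 genes whose mean reached 50 CPM, at 0.335. Next came Kbtbd3 (0.389), the platelet factor gene Pf4 (0.414), the scavenger receptor gene Cd36 (0.530) and the monocyte attractant gene Ccl7 (0.538). The 5 genes were the same with a smaller prior count. This nearness includes the difference between the ages for which Ccl24 and Tslp were picked. The other members lay farther off, from 1.11 for Mgl2 to 3.75 for Chil3.

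The summed level of border macrophage markers was lower in the same aged libraries, but not that of each marker. The 11 markers summed to 24300 to 27430 CPM in the 2-month libraries and 8047 to 16720 CPM in the 18-month ones, with 5 of the 11 lower in all 3 aged libraries than in the 3 young ones and 0 higher, where 8.45% of genes with a mean of 50 CPM or more were lower in this way. The other 6 markers overlapped between the ages. Among them Cbr2 was at 651 ± 67.1 and 685 ± 48.6 CPM, Folr2 at 828 ± 145 and 796 ± 222 CPM and Stab1 at 511 ± 190 and 367 ± 64.2 CPM (SD, n = 3 each). In bulk samples, fewer cells of a type and less RNA per cell cannot be told apart. Relative to these markers within each library, a scaling chosen after seeing the data, both ligands were lower in all 3 aged libraries than in the 3 young ones. The size of the difference depended on the scaling, and the part of cell number in the ligand levels was not tested. For Ccl24 the difference of group means of log2 CPM was -2.34 as measured, -1.28 relative to the summed markers and -1.78 relative to their mean log2 level. For Tslp it was -1.98 as measured, -0.93 relative to the sum and -1.42 relative to the mean log2 level. Pf4 made up the largest part of the sum, and with Pf4 left out of the mean the differences were -1.88 for Ccl24 and -1.52 for Tslp.

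**Figure D1:**
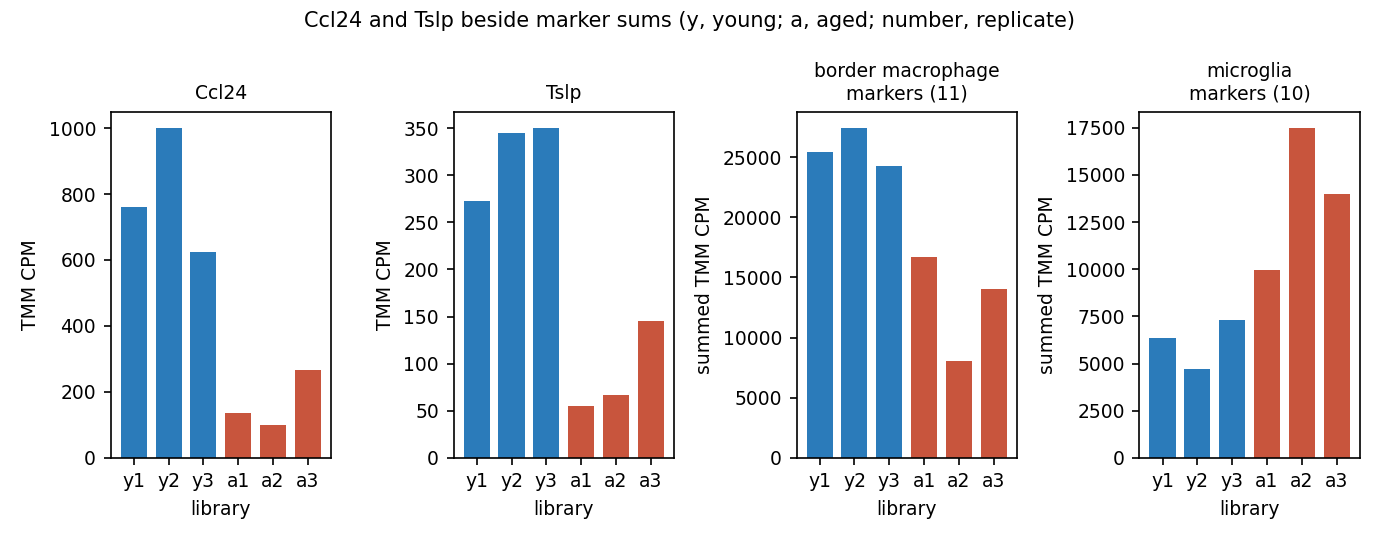
TMM CPM of Ccl24 and Tslp (left panels) and summed TMM CPM of 11 border macrophage and 10 microglia markers (right panels), 1 bar per library, young in blue and aged in red. Both ligands and the border macrophage sum are lower in all 3 aged libraries than in the 3 young ones, and the microglia sum is higher.

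Tslp is best known from epithelium and stroma. The 6 markers of keratin-type epithelium summed to at most 8.98 CPM in any library and the 10 fibroblast and mural cell markers to at most 18.9 CPM. Epcam did not exceed 0.215 CPM, Pdgfrb was at 0 counts in every library and Dcn did not exceed 0.521 CPM. Other markers of these lists were counted. Cspg4 was at 3.44 to 9.57 CPM in every library and Col1a2 at 11.65 CPM in young replicate 2. Krt18 and Krt8 were at 4.94 and 3.36 CPM in young replicate 3. Choroid plexus epithelium markers summed to 569 to 11890 CPM, most of it Ttr, and this sum was high in young replicate 3 and aged replicate 3. Aged replicate 3 was the highest of its group for both ligands, while in the young group Tslp was at 350.2 CPM in replicate 3 beside 345 CPM in replicate 2, and Ccl24 was lowest in replicate 3. The part of these cells in the ligand levels was not tested.

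The gene length listed for Tslp was that of a model with no annotated coding part. Each table lists a gene length per library, and for genes at 0 counts with more than 1 transcript that length matched the mean of the GENCODE M21 transcripts within 1 base in 93.0% of 3705 genes. Tslp has 2 models in that annotation. The protein-coding one has 5 exons, 1126 bases and a coding part of 420 bases. The other is a retained-intron model of 2 exons and 1134 bases with no coding part, from 32816860 to 32817194 and from 32818999 to 32819797 on chromosome 18, so that it lacks the first 3 exons of the coding model. The listed length of Tslp was 1134 in all 6 libraries, that of the retained-intron model. If listed lengths are means weighted by abundance, which the sources used here do not state, the Tslp counts lie mostly on the retained-intron model. No share is given, since the models differ by 8 bases and Retnla, with 1 model of 599 bases, was listed at 598 in 4 libraries. The level of the complete coding transcript was not resolved. None of the 1230 windows of 100 bases (the cycle number of the flow cells) in the Tslp models occurred in a transcript of another gene.

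Ccl24 has 2 models that carry the same 357 coding bases and differ after the stop codon. The longer model, of 1295 bases, ends in 1 long exon, while the shorter, of 561 bases, splices within that region and ends earlier. The listed length was 737, 725 and 732 bases in young replicates 1, 2 and 3 and 682, 709 and 710 bases in aged replicates 1, 2 and 3. If lengths are weighted by abundance, the longer model held 23.2 ± 0.821% of Ccl24 transcripts in young and 19.0 ± 2.16% in aged libraries (SD, n = 3 each), and the groups did not overlap. Listed lengths were lower in all 3 aged libraries than in the 3 young ones for 5.64% of 9013 genes tested whose length varied, and higher for 4.14%. Under the same assumption the difference amounts to a few percentage points, and the shorter model was the main one at both ages. None of the 1286 windows of 100 bases in the Ccl24 models occurred in another gene's transcripts.

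**Figure D2:**
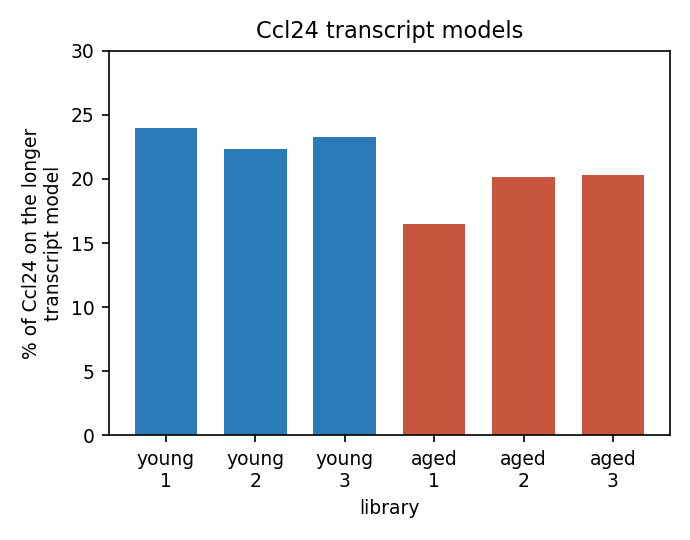
Share of Ccl24 transcripts on the longer of its 2 GENCODE models (vertical axis, percent), 1 bar per library, young in blue and aged in red. The share is worked out from the listed gene length, taken as a mean weighted by abundance. The young libraries lie between 22.3% and 24.0% and the aged ones between 16.5% and 20.3%.

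The receptor chains for interleukin-4 and interleukin-13 lay the other way, higher in all 3 aged libraries than in the 3 young ones. Il4ra, the chain shared by both receptor types (ENSMUSG00000030748.9, chromosome 7, 125552120 to 125579474), was at 41.4, 29.0 and 21.9 CPM in the 2-month libraries and 60.2, 74.7 and 57.9 CPM in the 18-month ones. The means were 30.8 ± 9.89 and 64.3 ± 9.10 CPM (SD, n = 3 each), with a log2 fold change of 1.06 (SE 0.55). Il13ra1 (ENSMUSG00000017057.9, chromosome X, 36112110 to 36171259), which pairs with it to bind both cytokines, was at 76.4, 62.7 and 61.3 CPM in the 2-month libraries and 104, 148 and 223 CPM in the 18-month ones. The means were 66.8 ± 8.32 and 158 ± 60.1 CPM (SD, n = 3 each), with a log2 fold change of 1.24 (SE 0.41). Il13ra1 was high in aged replicate 3 most of all, and its fold change without that library was 0.92. Microglia markers were higher in the same libraries (4694 to 7327 CPM in young, 9945 to 17490 CPM in aged), and their part in the receptor levels was not tested. Il4ra overlaps an antisense gene that had 0 counts in every library.

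Crlf2, the TSLP-binding chain (ENSMUSG00000033467.12, chromosome 5, 109554709 to 109558993), overlapped between the ages. It was at 19.0, 10.9 and 4.83 CPM in the 2-month libraries and 12.9, 21.2 and 25.3 CPM in the 18-month ones, with a log2 fold change of 0.77 (SE 1.07). That value ran from 0.41 without young replicate 3 to 1.33 without young replicate 1. Its partner chain gene Il7r, which was not among the 10 genes, had 69, 0 and 879 counts in young and 604, 80 and 31 counts in aged libraries. So the libraries that held the most Tslp (young replicates 2 and 3) held 0 and 879 counts of this chain.

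**Figure D3:**
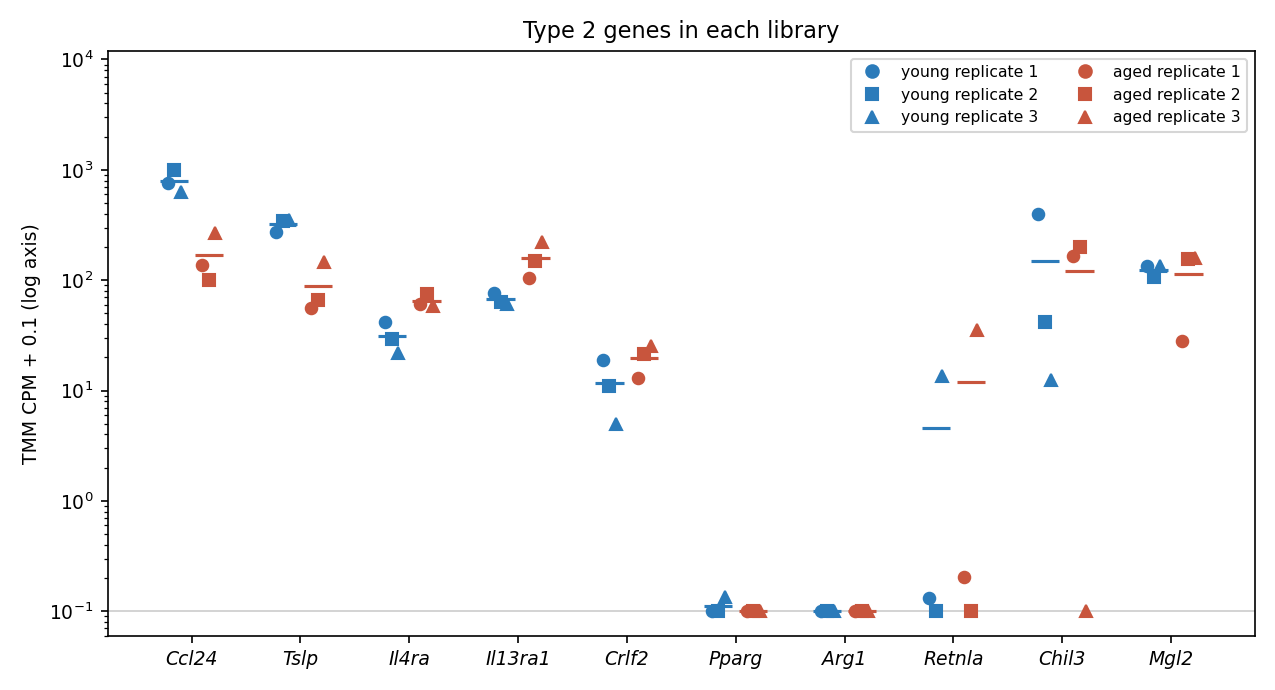
TMM CPM of the 10 type 2 genes in each library, with 0.1 added so that zeros can be drawn on the log axis; symbols mark the replicate, blue is young, red is aged and the short lines are group means. Ccl24 and Tslp lie lower and Il4ra and Il13ra1 higher in each aged library, Pparg and Arg1 sit at or near 0, and Retnla and Chil3 vary widely within each age.

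Arg1 and Pparg were at or near 0 counts at both ages. Arg1 (ENSMUSG00000019987.9, chromosome 10, 24915221 to 24927484), which encodes arginase 1, had 0 counts in all 6 libraries. A count of 0 allows a level of up to 0.0777 to 0.112 CPM (3 counts per library), a bound that covers counting error only. Pparg (ENSMUSG00000000440.12, chromosome 6, 115360951 to 115490399) had 1 count in young replicate 3 and 0 in the other libraries. Neither gene could be compared between the ages at this depth. Both are also at 0 in aged libraries, where Il4ra and Il13ra1 were higher.

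Retnla (ENSMUSG00000061100.5, chromosome 16, 48842551 to 48844461) was found in quantity in 1 library of each age. It had 1, 0 and 373 counts in young replicates 1, 2 and 3 and 3, 0 and 997 counts in aged replicates 1, 2 and 3, which is 13.3 CPM in young replicate 3 and 35.2 CPM in aged replicate 3. With so many libraries at the floor it did not pass the filter on low counts. These are the same 2 libraries in which the sum of choroid plexus epithelium markers was high (11890 and 8182 CPM, against 569 to 1381 CPM in the other 4). Most of it was Ttr, at 10480 CPM in young replicate 3 and 7270 CPM in aged replicate 3. The single markers differed. In aged replicate 3 Kcnj13 and Folr1 were at their highest of all libraries, while Clic6 was at 0.0707 CPM and Otx2 and Aqp1 at 0. The part of choroid plexus cells in Retnla was not tested.

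Chil3 (ENSMUSG00000040809.10, chromosome 3, 106147554 to 106167564) varied more within each age than between them. It was at 396, 41.4 and 12.4 CPM in the 2-month libraries and 165, 199 and 0 CPM in the 18-month ones, with 12360 counts in young replicate 1 and 0 counts in aged replicate 3. Its log2 fold change of -0.31 (SE 1.89) became 2.17 without young replicate 1 and 0.28 without aged replicate 3. Chil3 is also a gene of neutrophil precursors and monocytes. The summed neutrophil markers were 37860, 12090 and 14540 CPM in the 2-month libraries and 21630, 8003 and 6.57 CPM in the 18-month ones, so both were lowest in aged replicate 3 and highest in young replicate 1. Of the 10 neutrophil markers, Ngp and Lcn2, both genes of neutrophil granules, ranked the 6 libraries exactly as Chil3 did. Of the 9 monocyte markers 0 did, but Hp missed only through a tie at 0 counts in young replicate 3 and aged replicate 3. This count therefore does not separate the 2 cell types. Ngp was at 1576, 422 and 414 CPM in the 2-month libraries and 820.5, 1489 and 0.707 CPM in the 18-month ones. The part of neutrophils or monocytes in the Chil3 level was not tested.

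**Figure D4:**
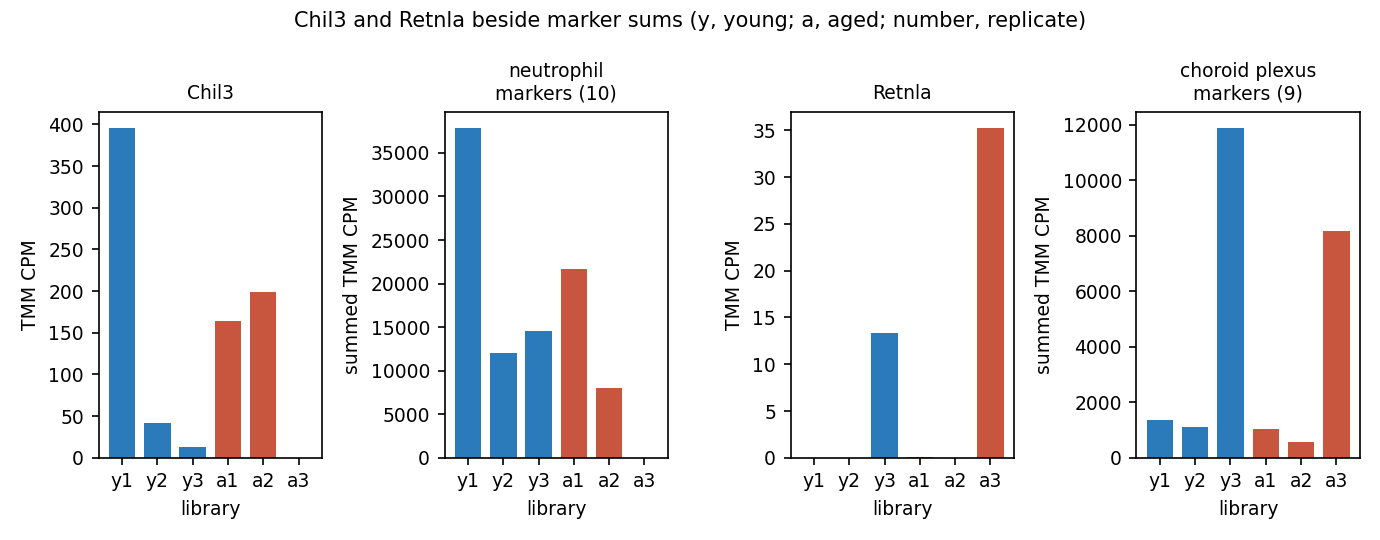
TMM CPM of Chil3 and Retnla beside the summed TMM CPM of 10 neutrophil and 9 choroid plexus epithelium markers, 1 bar per library, young in blue and aged in red. Chil3 and the neutrophil sum are highest in young replicate 1 and at or near 0 in aged replicate 3, and Retnla and the choroid plexus sum are high in young replicate 3 and aged replicate 3.

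The promoters of Retnla and Chil3 are shown because STAT6, the factor that interleukin-4 activates, binds palindromes of the form TTCNNNNGAA, and STAT factors in general also TTCNNNGAA. RefSeq windows of 300 bases (250 before and 50 after the start, build GRCm38.p6) were at hand for 7 of the 10 genes, with 9 windows in all. A match to either motif, which reads the same on both strands, was found in 2 of the 9 windows, those of Retnla and Chil3, and in 14.6% of all 32851 windows (6.95% hold TTCNNNNGAA and 8.30% TTCNNNGAA). The 250 bases before each start follow, with the match in capitals. In Retnla (chr16:48842359-48842608, plus strand) the match begins 145 bases before the start and in Chil3 (chr3:106167565-106167814, minus strand) 172 bases before it. A match is a string of letters, not a shown binding site.
Retnla: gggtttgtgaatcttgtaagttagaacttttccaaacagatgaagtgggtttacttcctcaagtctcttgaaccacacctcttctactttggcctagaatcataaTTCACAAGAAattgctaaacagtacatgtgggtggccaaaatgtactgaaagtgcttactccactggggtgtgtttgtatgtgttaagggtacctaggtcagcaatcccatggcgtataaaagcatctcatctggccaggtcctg
Chil3: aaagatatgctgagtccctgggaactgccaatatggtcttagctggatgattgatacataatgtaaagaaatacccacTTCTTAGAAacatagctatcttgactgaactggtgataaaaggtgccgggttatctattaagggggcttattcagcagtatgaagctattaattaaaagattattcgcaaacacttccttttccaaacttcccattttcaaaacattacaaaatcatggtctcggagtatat

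Mgl2 (ENSMUSG00000040950.13, chromosome 11, 70130329 to 70137550), a galactose-binding lectin gene also known from dendritic cells, was at a like level in 5 libraries. It was at 133, 107 and 133 CPM in the 2-month libraries and 27.7, 155 and 158 CPM in the 18-month ones. Aged replicate 1 stood apart, and the log2 fold change of -0.13 (SE 0.59) became 0.34 without it. Conventional dendritic cell markers summed to 244 to 975 CPM in the 2-month libraries and 588 to 1096 CPM in the 18-month ones. Most of each sum was Cd209a. Fscn1 was at 4.84 to 33.7 CPM over the 6 libraries, and Zbtb46 at 20.8 and 16.5 CPM in young replicates 1 and 3. Flt3 and Itgae reached 7.93 CPM (young replicate 2) and 9.37 CPM (young replicate 3). Clec9a was at 0 and Xcr1, Ccr7 and Dpp4 at no more than 0.0744 CPM in every library. The part of dendritic cells in the Mgl2 level was not tested. The neighbouring lectin gene Clec10a, named here for its likeness to Mgl2, was at 160, 127 and 131 CPM in the 2-month libraries and 32.1, 96.9 and 31.0 CPM in the 18-month ones. Both lectin genes were low in aged replicate 1, but in aged replicate 3 Mgl2 stood at its highest and Clec10a at its lowest.

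Mgl2 and Chil3 each have a close copy, and the sequence that a read could not assign is shown. Of the distinct 100-base windows in their transcripts, 3.95% of those of Mgl2 recur in Clec10a and 4.93% of those of Chil3 in Chil4 or the gene model Gm6522. The longest run of coding bases that Mgl2 shares with Clec10a is 183 bases (chr11:70136337-70136699, plus strand, across at least 1 intron), and the longest that Chil3 shares with Chil4 is 136 bases (chr3:106148634-106148850, minus strand, across an intron). Chil4 itself held 0 to 47 counts per library. Reads that fall within these runs are uncertain for both genes of a pair.
Mgl2 and Clec10a: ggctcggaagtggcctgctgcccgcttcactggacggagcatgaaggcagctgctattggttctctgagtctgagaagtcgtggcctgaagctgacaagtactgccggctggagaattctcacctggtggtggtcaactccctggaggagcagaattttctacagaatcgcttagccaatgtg
Chil3 and Chil4: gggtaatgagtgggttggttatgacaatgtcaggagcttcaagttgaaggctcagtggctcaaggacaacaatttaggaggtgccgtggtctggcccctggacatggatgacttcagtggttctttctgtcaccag

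Compared per length, Ccl24 had the highest mean of the 10 genes at both ages, at 658 ± 181 TPM in young and 168 ± 60.2 TPM in aged libraries (SD, n = 3 each). In young libraries Tslp followed at 150 ± 25.9 TPM, then Chil3 at 88.9 ± 104 TPM, whose spread covers both neighbours but not Ccl24, and Mgl2 at 38.0 ± 5.10 TPM. Crlf2 (8.10 ± 4.95 TPM), Il13ra1 (7.85 ± 0.627 TPM) and Retnla (5.32 ± 9.18 TPM) were within their spread of each other, and Il4ra was at 3.14 ± 0.835 TPM. In aged libraries the spread of Chil3 (117 ± 113 TPM) reached Ccl24 above it and Tslp (50.2 ± 22.9 TPM) and Mgl2 (48.2 ± 35.7 TPM) below it. Below them lay Il13ra1 (23.4 ± 9.25 TPM), Retnla (14.1 ± 24.3 TPM), Crlf2 (12.3 ± 3.50 TPM) and Il4ra (7.68 ± 3.35 TPM).

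Of the 10 genes, 7 passed the filter on low counts and Pparg, Arg1 and Retnla did not. By edgeR's quasi-likelihood test with Benjamini-Hochberg adjustment over 10661 genes, 0 of the 7 were called at an adjusted p under 0.05, where 0.00938% of all genes tested were called. At an unadjusted p under 0.05 edgeR gave 1 of them as higher and 2 as lower, against 5.67% of all genes in either direction. The DESeq2 Wald test called 1 of them and limma-voom 0, against 3.47% and 0% of all genes tested. Groups did not overlap for 2 of the 7 with aged higher (Il4ra and Il13ra1), against 7.54% of all genes tested, and for 2 with aged lower (Ccl24 and Tslp), against 7.19%, or 14.7% in either direction. Among 2189 genes with a mean of 50 CPM or more the shares were 11.2% higher, 8.45% lower and 19.6% in either direction. Since the genes were picked with this comparison known, nothing is read from these counts.

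The wider type 2 pathway was read from 86 further genes in 6 roles. Of these, 56 were tested, 30 were under the filter and 10 of the 30 had 0 counts in every library. Genes were called at an adjusted p under 0.05, with Benjamini-Hochberg adjustment over 10661 genes in edgeR. By edgeR's quasi-likelihood test 0 of the 56 were called, with limma-voom 0 and with the DESeq2 Wald test 4 (Socs3, Batf3, Irf4 and Il4i1). Of all genes tested, edgeR called 0.00938%, limma-voom 0% and DESeq2 3.47%. In simulated data with 200 changed genes, edgeR recovered 45 and made 2 false calls, while DESeq2 recovered 59 and made 132. The 4 genes called by DESeq2 alone are therefore uncertain, and the absence of edgeR calls does not show that levels were alike. Before adjustment 4 of the 56 had p under 0.05 with higher and 4 with lower levels, against 3.63% and 2.04% of all genes tested. The median log2 fold change was -0.09, beside -0.02 over all genes tested, with 27 values above and 29 below 0. Microglia marker sums were higher and border macrophage sums lower in the aged libraries, as given above, and their part in the pathway values that follow was not tested.

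Ligands other than Ccl24 and Tslp were few. Interleukins 5, 9, 13 and 25 and the chemokines Ccl11 and Ccl22 had 0 counts in every library, and Il33 had at most 2. Il4, by contrast, was counted in each library, at 17.8, 39.7 and 33.9 CPM in the 2-month libraries and 21.9, 6.35 and 8.27 CPM in the 18-month ones (log2 fold change -1.33, SE 0.94, edgeR adjusted p = 0.974). The groups overlapped through young and aged replicate 1, and without aged replicate 1 the log2 fold change was -2.05 (edgeR adjusted p = 0.754). T and NK cell markers summed to 46.2, 103 and 16.8 CPM in the 2-month libraries and 145, 39.0 and 21.7 CPM in the 18-month ones. The mast cell and basophil genes Mcpt4 and Ms4a2 were at 0 counts in each library. Mcpt8 and Cpa3 had at most 1 count and Kit at most 16. The part of these cells in the Il4 level was not tested. None of the 1127 windows of 100 bases in the Il4 transcripts recurs in another gene. Ccl17, a ligand of CCR4, was at 0, 8.56 and 7.55 CPM in the 2-month libraries and at 0, 4.07 and 0 CPM in the 18-month ones. Both tested ligands had values below 0 and neither was called by edgeR or DESeq2.

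Among the 14 receptor genes, 6 were tested and edgeR and DESeq2 called 0, with a median of -0.80. Il2rg, the common gamma chain that completes the type I interleukin-4 receptor, was at 0, 18.7 and 20.9 CPM in the 2-month libraries and 123, 61.3 and 118 CPM in the 18-month ones. No aged library overlapped a young one (log2 fold change 2.93, SE 1.46, edgeR adjusted p = 0.913). Il1rl1, the interleukin-33 receptor, was at 0.0640, 8.11 and 12.6 CPM in the 2-month libraries and at 0.764, 0.181 and 0.106 CPM in the 18-month ones (-4.29, SE 2.25, edgeR adjusted p = 0.920). Csf2rb, the common beta chain of the interleukin-5 and GM-CSF receptors, was at 61.9 ± 16.6 and 28.5 ± 14.4 CPM (SD, n = 3 each), lower in all 3 aged libraries than in the 3 young ones (-1.12, SE 0.64, edgeR adjusted p = 0.936). Of its windows of 100 bases 4.63% recur in Csf2rb2. The eotaxin receptor gene Ccr3 had 41 counts in young replicate 2 and 0 elsewhere. Of genes of eosinophil granules, Prg2 was at 0 counts in every library and Epx at no more than 0.0518 CPM. The eosinophil-associated ribonuclease gene Ear2, listed with the activation targets, was at 104, 24.9 and 106 CPM in the 2-month libraries and 0, 16.4 and 91.8 CPM in the 18-month ones.

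Signalling genes had a median of 0.76 over 13 tested members, of which edgeR called 0 and the DESeq2 Wald test 1, Socs3. The kinase gene Jak1 was at 111 ± 50.2 and 103 ± 46.5 CPM (SD, n = 3 each). Stat6, the central factor of the pathway, had 40, 220 and 794 counts in young and 651, 1262 and 243 counts in aged libraries, with wide overlap. The phosphatase gene Ptpn6, a brake on JAK signalling, was at 53.5 ± 10.3 and 122 ± 67.7 CPM and higher in each aged library (log2 fold change 1.19, SE 0.49, edgeR adjusted p = 0.839). Without aged replicate 2 the value was 0.64. Socs3, a feedback inhibitor, was at 9.31 and 12.5 CPM in aged replicates 1 and 2 but at 0.0707 CPM in aged replicate 3, beside at most 0.409 CPM in young libraries (edgeR adjusted p = 0.883, DESeq2 adjusted p = 0.0456).

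Of 13 tested transcription regulators edgeR called 0 and the DESeq2 Wald test 2, Batf3 and Irf4, with a median of -0.21. Batf3, an AP-1 family factor, had 0, 13 and 0 counts in young and 644, 613 and 655 counts in aged libraries (log2 fold change 6.96, SE 2.29, edgeR adjusted p = 0.691, DESeq2 adjusted p = 0.0114). Irf4, a factor that drives alternative activation, was at 2.35 ± 1.53 CPM in the 2-month libraries and 0.217 ± 0.116 CPM in the 18-month ones (SD, n = 3 each), lower in each aged library (-3.41, SE 1.54, edgeR adjusted p = 0.883, DESeq2 adjusted p = 0.0132). Cebpb was at 32.6 ± 4.79 and 63.1 ± 38.6 CPM and Myc at 12.7 ± 9.79 and 22.4 ± 11.8 CPM, and neither was called. Without aged replicate 2 the log2 fold change of Cebpb moved from 0.95 to 0.33. Cebpb overlaps Tmem189 on the other strand, and the library kit does not mark strand.

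Further activation targets lay in both directions, with a median of -0.22 over 14 tested genes, of which edgeR called 0 and the DESeq2 Wald test 1, Il4i1. Cd200r1, an inhibitory receptor linked to alternative activation, was at 74.4, 163 and 351 CPM in the 2-month libraries and 65.8, 34.3 and 30.4 CPM in the 18-month ones (log2 fold change -2.17, SE 0.60, edgeR adjusted p = 0.619). With no filter on low counts its edgeR adjusted p was 0.025, and without young replicate 3 its log2 fold change was -1.44 (edgeR adjusted p = 0.767). Mrc1, both a classical target and the gate's marker, was at 2795 ± 135 and 1611 ± 639 CPM (-0.80, SE 0.32, edgeR adjusted p = 0.817). F13a1, the coagulation factor gene, was at 608 ± 84.6 and 548 ± 211 CPM. Il4i1, an amino acid oxidase gene named for its induction by interleukin-4, had a level of at most 0.107 CPM in the 2-month libraries and 2.22 to 3.46 CPM in the 18-month ones (6.08, SE 2.08, edgeR adjusted p = 0.707, DESeq2 adjusted p = 0.00184). That fitted value rests on 3 counts in the young group and is no bound. Il4i1 overlaps Nup62 and Tbc1d17, which held more reads, so its counts are uncertain.

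Some PPAR gamma target genes of lipid handling were counted although Pparg had 1 count in young replicate 3 only. Of the 11 genes 8 were tested, with 0 called by edgeR or DESeq2 and a median of 0.06. Cd36, a fatty acid and lipoprotein receptor gene, was at 391, 297 and 443 CPM in the 2-month libraries and 114, 77.5 and 371 CPM in the 18-month ones (log2 fold change -1.01, SE 0.55, edgeR adjusted p = 0.929). Aged replicate 3 was within the young range, and without it the value was -1.97 (edgeR adjusted p = 0.780). Plin2, which coats lipid droplets, was at 30.8, 30.4 and 25.5 CPM in the 2-month libraries and 48.9, 71.3 and 150 CPM in the 18-month ones, without overlap (1.64, SE 0.57, edgeR adjusted p = 0.725), and the value was 1.06 without aged replicate 3. Fabp5, a fatty acid carrier gene, was at 68.8 ± 26.3 and 50.8 ± 23.6 CPM (SD, n = 3 each). Fabp4 had 0 counts in every library, Angptl4 had 1 count in young replicate 2 only and Cidec 22 counts in young replicate 1 only.

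**Figure D5:**
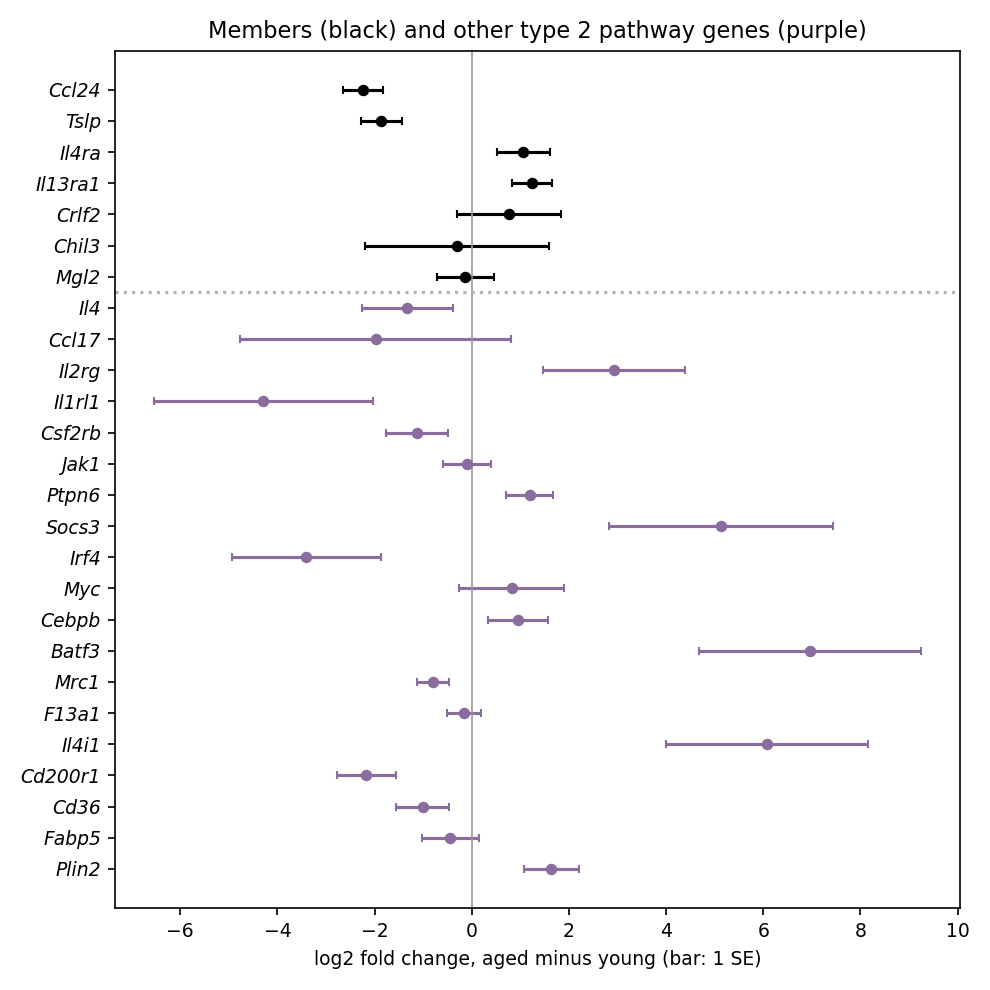
Log2 fold change, aged minus young, of the 7 type 2 genes that passed the low-count filter (black) and of 19 other pathway genes (purple), with bars of 1 SE from the edgeR fit over 6 libraries. Ccl24 and Tslp lie below 0, Il4ra and Il13ra1 above 0, and the low-count genes Batf3, Il4i1, Socs3 and Il1rl1 have the widest distances from 0 and wide bars.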

How the data were processed

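RNA of sorted CAMs was reverse transcribed with a low-input template-switching kit, amplified by PCR, tagmented and sequenced as single reads, per the labels' protocols. Per the submitters' processing notes, the tools were DRAGEN, fastp, Picard, FastQC and bcl2fastq 2.20, with build mm10; the annotation release is not given in the sources used here. Per the file headers, each table deposited by the authors held, for each gene, the estimated count, the TPM value and a length. Estimated counts were rounded to whole numbers. Of 35598 identifiers, 35513 matched GENCODE M21 (same build), which gave symbols, positions and transcript models.

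Genes were filtered with filterByExpr, scaled by TMM and tested with edgeR 4.0.16 (R 4.3.3), robust quasi-likelihood, two-sided, on 3 against 3 libraries, with Benjamini-Hochberg adjustment over 10661 genes. SE was taken as the size of the log2 fold change divided by the root of its F statistic. DESeq2 1.42.0, limma 3.58.1 (voom, and trend on log2(TPM + 1)), other filters and scalings, a replicate block and leaving out each library were alternatives. The fit was tested on simulated data with the scatter of the real libraries and 3 libraries a group. In these data 200 of 10661 genes, all averaging 50 CPM or more, were changed by a log2 fold of 2. Recovery of genes below that level was not simulated. Of the 200, edgeR recovered 45 (22.5%), DESeq2 59 (29.5%) and limma-voom 50 (25%). False calls were 2 in edgeR, 132 in DESeq2 and 3 in limma-voom. A gene that edgeR did not call may therefore still differ, and a call by DESeq2 alone is uncertain.

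The members, lists, tests and alternatives were chosen with earlier results of these data known. Of the other pathway genes, the text names, per role, called genes, or where none was called the 2 most abundant and the 2 with the smallest p. Il7r, Stat6, Clec10a, Ear2, Ccr3, the genes at or near 0, overlapping genes and the single markers were chosen after their values were seen. Mrc1 and F13a1 stand in both the border macrophage markers and the activation targets. PCR copies cannot be told from molecules here, as the labels name no molecular identifiers, so bounds cover counting error only.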

Additional observations from a re-analysis of the deposited data

How the results depend on the processing

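Ccl24 and Tslp stayed below 0 and Il4ra, Il13ra1 and Crlf2 above 0 in each alternative that gave a value (14 for Ccl24, Tslp and Il13ra1, 13 for Il4ra and Crlf2, whose means are under 50 CPM). Ccl24 ran from -2.74 to -1.97, Tslp from -2.40 to -1.60, Il4ra from 0.87 to 1.34 and Il13ra1 from 0.92 to 1.48; Chil3 (-2.39 to 2.17) and Mgl2 (-0.45 to 0.34) changed sign. The scaling to border macrophage markers was chosen after seeing the data. It gave 2.16 for Il4ra and 2.24 for Il13ra1 against the summed markers, and 0.56 for Mgl2.

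Genes called (1 in edgeR) were 443 in the DESeq2 Wald test, 0 in limma-voom, 62 with no low-count filter and 25 among genes averaging 50 CPM or more, and 0 to 2 when a library was left out. Pathway genes called (0) were 4 in the DESeq2 Wald test and 1 (Cd200r1) with no filter. Genes without overlap (1571) were 953 of 6120 with 10 CPM in 3 libraries and 430 of those averaging 50 CPM or more, since fewer genes were tested. Jak1 turned to 0.37 in limma-trend on TPM, and ran from -0.49 to 0.29 when 1 library was left out (0.29 without young replicate 1, 0.17 without aged replicate 3). F13a1 turned to 0.029 in limma-trend on TPM, and ran from -0.45 to 0.11 when 1 library was left out (0.11 without aged replicate 3). The cause was not tested. Of 247 values of the 19 named pathway genes, 237 kept direction and side of the threshold.

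With a replicate block, 1 gene and 0 pathway genes were called. Same-numbered libraries did not deviate together (correlations of -0.013, 0.027 and 0.079 over 2189 genes), so the numbers were not taken as pairs. With 3 libraries a group, genes at low counts carried wide errors.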

Other observations

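Siglecf, a lectin gene of eosinophils and of some tissue macrophages, was at 33.2 CPM in young replicate 3 and 13.7 CPM in aged replicate 3 and at no more than 0.130 CPM in the other libraries. These are the 2 libraries in which Retnla was counted in quantity, while Epx and Prg2 were at or near 0 there. Klf4, a factor that acts with STAT6, had 1390, 596 and 232 counts in young and 137, 410 and 2 counts in aged libraries. Siglecf and Klf4 were picked after their values were seen, and no explanation was tested.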
